A study of Mus musculus with 6 samples.

Results

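The Polycomb group genes described here code for the subunits of chromatin complexes that keep genes silent and of the enzyme that removes one of their marks. They were chosen by name, with earlier results of these data known, and all 34 were found among the 55401 genes of the deposited table. They fall into 6 sets by their place in these complexes, namely 6 genes of the core of Polycomb repressive complex 2 (PRC2), 5 of its accessory subunits, the 2 catalytic subunits of Polycomb repressive complex 1 (PRC1), 10 subunits of canonical PRC1, 7 of variant PRC1 and 4 of the Polycomb deubiquitinase (PR-DUB).

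PRC2 methylates histone H3 at lysine 27, and PRC1 attaches ubiquitin to histone H2A, a mark that PR-DUB takes off again. Canonical PRC1 reads the PRC2 mark through a CBX chromodomain protein and compacts chromatin through polyhomeotic proteins, while variant PRC1 carries RYBP or YAF2 in place of CBX and is recruited in other ways. In blood, Bmi1 and Ezh2 are known for the self-renewal of stem cells and the growth of B-cell precursors, and Asxl1 for its loss in myeloid malignancy.

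RNA came from the bone marrow of 6 secondary recipient mice, and both groups carry the same Hoxa9 and Meis1 leukaemia. Lym stands for lymphoid leukaemia cells, taken from recipients 62, 63 and 87. Lin- stands for Lin-cKit+ progenitor cells, which lack lineage markers and carry Kit, taken from recipients 56, 57 and 91. Wherever 3 values are given for a group, they follow this order of mice. Each mouse gave 1 library, and strain, age and donor of the mice are not given in the sources used here. A comparison of Lym with Lin- follows from these labels, which asks how the lymphoid cells of this leukaemia differ from its progenitor cells.

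The libraries held 18537700 to 22634286 reads assigned to genes, so that 3 reads, taken as the floor of detection, equal a normalized count of 2.64 to 3.36. Normalized counts are reads divided by a size factor for each library, and fold changes are differences of log2(normalized count + 2), Lym minus Lin-, with their standard errors (SE) and adjusted p-values from limma over all 14273 genes tested. Hoxa9 was at 10027, 11116 and 9330 for Lym and 8667, 5224 and 10473 for Lin-, and Kit at 18902, 12027 and 3158 for Lym against 4953, 6066 and 3420 for Lin-. Kit, the marker in the name of the Lin- cells, was thus highest in Lym mice 62 and 63. Of 10 early B markers Pax5 had at most 3 reads in any library, and the sum of the 10 was 72.9, 13.8 and 15.5 CPM (reads scaled to the library total) in Lym against 22.1, 4.90 and 14.96 in Lin-. Of these 10 markers 9 had a higher mean in Lym, 4 with groups apart, and none had groups apart with lower values in Lym. Over all genes tested the groups were apart with higher values in Lym in 8.49% and with lower values in 7.08%. The 9 myeloid markers summed to 3721 to 3970 CPM in Lym and 4614 to 8031 in Lin-, with 2 of 9 means higher in Lym and 4 with groups apart and lower in Lym. The 6 erythroid markers summed to under 1 CPM in every library. Among T and NK markers Cd4, Cd3d and Cd8a stayed at 3 reads or fewer, and the sum of that list was 12.7, 2.32 and 0.797 CPM in Lym against 0.937, 0.751 and 0.05003 in Lin-, with 4 of 6 means higher in Lym. The 6 stromal and endothelial markers summed to 329 to 449 CPM in Lym and 252 to 303 in Lin-, with 5 of 6 means higher in Lym and 2 with groups apart. The part of these other cell types in the results below was not tested, and in such bulk samples fewer cells of a type and less RNA per cell cannot be told apart.

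The promoters of 4 PRC2 core genes are shown because the mean differences within the core had both signs: Ezh1 had its higher values in Lym, and Suz12, Rbbp4 and Rbbp7 had lower means there. Each stretch is the 250 bases before the start of the gene in RefSeq (GRCm38.p6), written 5′ to 3′ on the gene's strand. The 4 were taken because they have 1 listed start and hold no annotated exon. Ezh1 lies at chr11:101226464-101226713 (minus strand), Suz12 at chr11:79992856-79993105 (plus strand), Rbbp4 at chr4:129335371-129335620 (minus strand) and Rbbp7 at chrX:162760122-162760371 (plus strand). Capitals mark matches, on either strand and with no overlap between motifs in these 4, to 7 motifs that were searched: E2F (TTTCCCGC, TTTCGCGC, TTTGCCGC or TTTGGCGC), MEIS (TGACAG), HOX-PBX (TGATTNAT), ETS (CCGGAAGT), the CCAAT box, the GC box (GGGCGG) and NRF1 (GCGC, any base, then TGCGC).
Ezh1: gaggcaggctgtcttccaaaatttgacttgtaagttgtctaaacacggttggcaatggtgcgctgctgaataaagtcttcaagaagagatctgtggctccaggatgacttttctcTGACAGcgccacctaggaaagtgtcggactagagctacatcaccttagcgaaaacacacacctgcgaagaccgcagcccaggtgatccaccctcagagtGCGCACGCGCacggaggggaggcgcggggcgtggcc
Suz12: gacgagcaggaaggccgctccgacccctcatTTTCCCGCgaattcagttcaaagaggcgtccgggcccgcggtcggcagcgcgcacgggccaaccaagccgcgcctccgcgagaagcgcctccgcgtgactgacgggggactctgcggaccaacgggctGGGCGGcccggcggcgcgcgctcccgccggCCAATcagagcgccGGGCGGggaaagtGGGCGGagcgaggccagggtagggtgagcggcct
Rbbp4: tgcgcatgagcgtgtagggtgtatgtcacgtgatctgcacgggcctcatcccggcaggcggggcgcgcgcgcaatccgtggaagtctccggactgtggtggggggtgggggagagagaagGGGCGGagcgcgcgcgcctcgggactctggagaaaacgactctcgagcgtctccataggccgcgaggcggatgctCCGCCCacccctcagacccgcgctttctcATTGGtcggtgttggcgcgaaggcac
Rbbp7: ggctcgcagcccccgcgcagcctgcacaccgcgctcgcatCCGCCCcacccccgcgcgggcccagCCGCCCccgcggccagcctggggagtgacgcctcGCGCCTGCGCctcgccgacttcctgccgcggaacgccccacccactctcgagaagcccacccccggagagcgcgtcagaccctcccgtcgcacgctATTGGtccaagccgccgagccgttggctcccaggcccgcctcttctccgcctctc

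The Ezh1 stretch held MEIS letters 135 to 130 bases before its start and NRF1 letters 36 to 27 bases before it, and neither a CCAAT box nor a GC box. Suz12 held E2F letters 219 to 212 bases before its start, and Suz12, Rbbp4 and Rbbp7 each held a CCAAT box and GC boxes. The stretches of Eed and Ezh2 overlap annotated exons and are not shown. Eed, with a lower mean in Lym, held none of the searched motifs, so it lacked both boxes as Ezh1 did. Ezh2 held MEIS letters, NRF1 letters and a CCAAT box but no GC box. A link between these letters and the direction of the differences was not tested. The content of G and C was 55.2% in Ezh1, against 73.6% in Suz12, 67.6% in Rbbp4 and 76.4% in Rbbp7. Of the 32851 promoter stretches of this length in the table, 1.86% held the E2F letters, 15.9% the MEIS letters, 3.74% the NRF1 letters, 33.8% a CCAAT box and 32.7% a GC box. Promoters were matched for 29 of the 34 members, and not for Cbx2, Pcgf1, Rybp, Yaf2 and Asxl3. Of those 29 genes 23 (79.3%) held a GC box, against 35.4% of all 27025 genes in the table, and 6 (20.7%) the NRF1 letters, against 4.23%. MEIS letters were in 4 (13.8%, against 18.0% of all genes), E2F letters in 2 (6.90%, against 2.16%), ETS letters in 1 (3.45%, against 3.23%), a CCAAT box in 11 (37.9%, against 37.5%) and HOX-PBX letters in none (against 3.31%). The shares of all genes include genes not expressed here, so these differences are not shown to be particular to the members. These matches describe letters and name no bound factor.

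No member passed an adjusted p of 0.05 in limma, and neither did any other gene (0 of 14273, or 0.0%). The 33 members that passed the low-value filter (3 or more libraries with a normalized count of 10 or above) had a median log2 fold change of 0.18, and 24 of them (72.7%) were above 0, against a median of -0.01 and 48.7% above 0 over all genes tested. At an unadjusted p under 0.05, 5 members were higher in Lym (Ezh1, Phf1, Cbx2, Phc1 and Asxl1), where 5.96% of all genes were, and 1 was lower (Yaf2), where 4.27% were. The ranges of the groups were apart in 7 members with higher values in Lym, against 8.49% of all genes, and in 1 with lower values, against 7.08%. edgeR on the recovered reads also gave 0 calls over all genes at an adjusted p of 0.05. At an unadjusted p under 0.05, limma had 850 genes higher in Lym and 609 lower. Without the filter on low values limma called 0.0158% of genes and no member. DESeq2 on the same reads called 1 member, Cbx2 (adjusted p = 0.0477), where it called 1.39% of genes, and the authors' deposited table, with 0.32% of genes called, held none of the members. The unadjusted p of Cbx2 was nearly the same, at 0.00063 in DESeq2 on the recovered reads and 0.000644 in the authors' DESeq2. Adjusted p-values covered 16268 genes in the former and 31604 in the latter.

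The Lym library of mouse 87 lay inside the range of the 3 Lin- libraries for 20 of the 33 tested members (60.6%). The share over all genes tested was 48.0%. This position was not counted for Lym mice 62 and 63. Without Lym mouse 87 limma called 4 members, Cbx2, Cbx6 and Phc1 higher in Lym and Yaf2 lower. It then called 5.49% of all genes as higher and 4.18% as lower. That is 9.67% of all genes in both directions, and no other mouse left out gave a call among the members (without Lin- mouse 91, 0.00718% of genes were called). Lym mouse 62, whose library was made from 1 ng of RNA where the others had 2 ng, had the highest value of all 6 libraries in 15 of the 33 members, and the part of RNA input in this was not tested. How often a library was highest or lowest over all genes was not counted. Such counts, here and below, are therefore not shown to be particular to the members.

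**Figure D1:**
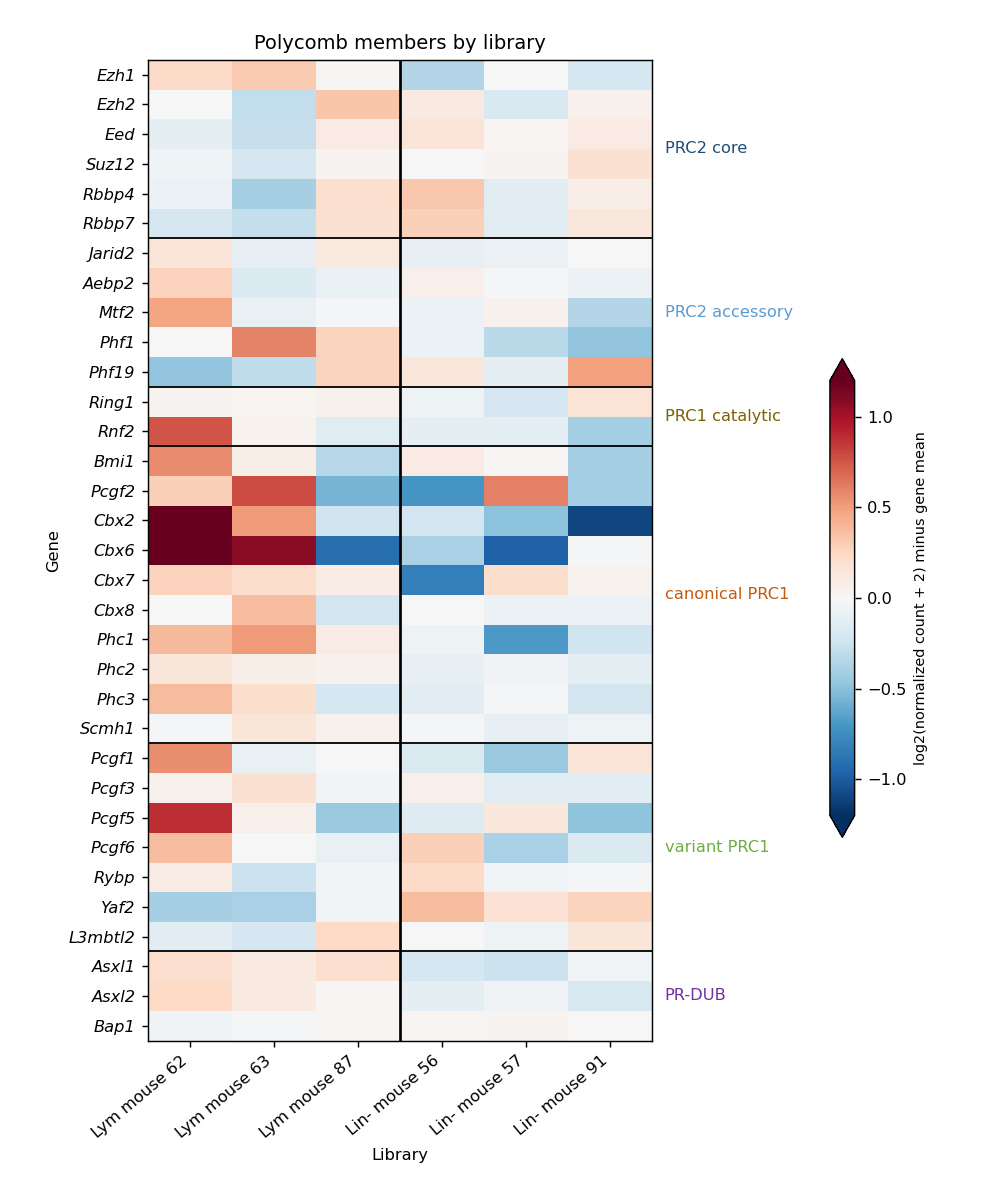
Each row is 1 of the 33 tested members and each column a library, with Lym left of the black line and Lin- right of it. Colour gives log2(normalized count + 2) minus the mean of that gene over the 6 libraries. In the canonical PRC1 rows the deepest red lies in Lym mice 62 and 63, which hold the highest value of all 10 genes, and in the PRC2 core rows Lym mouse 63 is the lowest library in 5 of 6.

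The core of PRC2 overlapped between the groups in 5 of its 6 members, with a median log2 fold change of -0.16 and 2 of 6 members above 0. That median was -0.05 without Lym mouse 63 and -0.08 without Lin- mouse 56. Groups were apart with higher values in Lym in 8.49% of all genes tested. Ezh2, the main methyltransferase, had normalized counts of 3911, 3175 and 4903 for Lym and 4197, 3432 and 4039 for Lin-. Lym mouse 87 was the highest library and Lym mouse 63 the lowest, so Lym enclosed the whole Lin- range. The log2 fold change was 0.02 ± 0.17 (SE; 95% interval -0.36 to 0.41; limma adjusted p = 0.973), and its sign depended on single mice (-0.14 without Lym mouse 87). Ezh1, the weaker paralogue that prevails in cells at rest, was at 1238, 1316 and 1070 for Lym against 830, 1060 and 915 for Lin-. Every Lym value was above every Lin- value, though Lym mouse 87 and Lin- mouse 57 were only 1070 and 1060. Its log2 fold change was 0.37 ± 0.15 (95% interval 0.03 to 0.71; unadjusted p = 0.0361, limma adjusted p = 0.467).

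The scaffold subunits had lower means in Lym, with overlapping groups. Suz12, which holds the complex together, was at 4564, 4098 and 4825 for Lym against 4735, 4819 and 5369 for Lin-, with a log2 fold change of -0.15 (95% interval -0.41 to 0.11). Eed, which binds the methylated histone and stimulates the enzyme, was at 978, 866 and 1129 for Lym against 1168, 1072 and 1128 for Lin-, with a log2 fold change of -0.19 (95% interval -0.51 to 0.14). Lym mouse 63 was the lowest library for both. The histone chaperones Rbbp4 and Rbbp7, which PRC2 shares with other complexes, were lowest in the same mouse. Rbbp4 was at 5179, 4127 and 6215 for Lym against 6792, 4943 and 5720 for Lin- (limma adjusted p = 0.734). Rbbp7 was at 4508, 4252 and 5852 for Lym against 6298, 4744 and 5688 for Lin- (limma adjusted p = 0.663). Some exonic bases overlap an opposite-strand gene in Rbbp4 (8.94%, Sync), Eed (6.82%, E230029C05Rik) and Rbbp7 (5.98%, Txlng). Sync, E230029C05Rik and Txlng had mean normalized counts of 0.37, 78.2 and 708 over the 6 libraries.

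Summed per kilobase of exon, the PRC2 core came to 4073, 3641 and 4871 normalized counts per kb for Lym and to 4944, 4107 and 4718 for Lin-. The sum of 14 genes of DNA replication and mitosis came to 4255, 3917 and 7041 CPM in the same Lym libraries and to 5865, 4571 and 5926 in the Lin- libraries. Lym mouse 63 was lowest and Lym mouse 62 next on both measures, and Lin- mouse 57 followed on both. The part of proliferation in the PRC2 values was not tested.

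**Figure D2:**
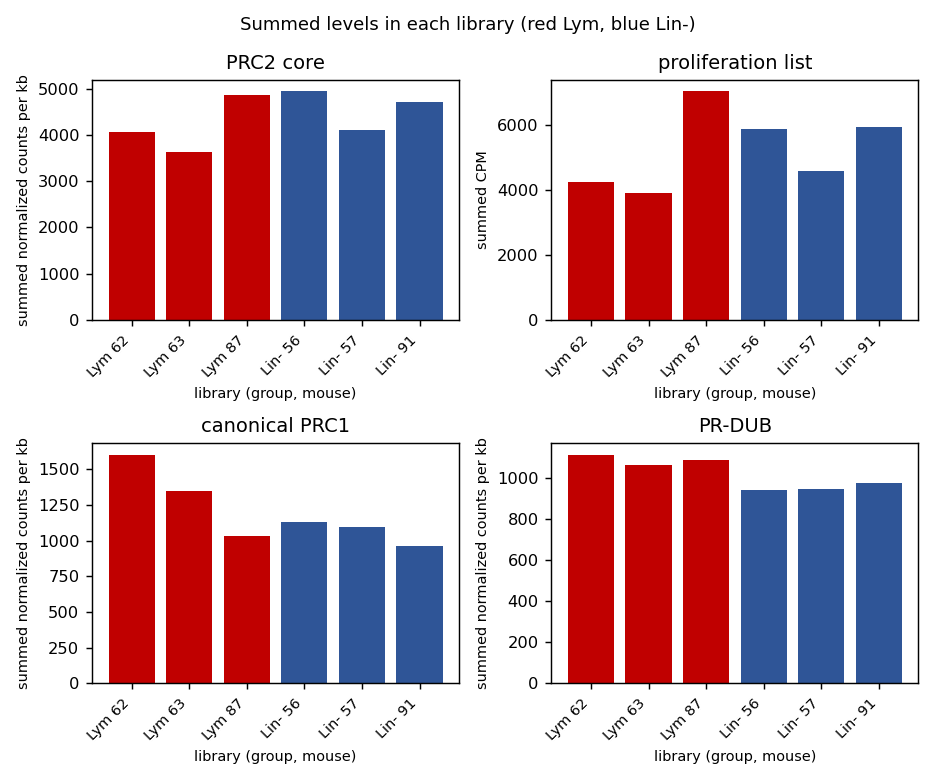
Bars give the summed level of a gene set in each library, as normalized counts per kb of exon for PRC2 core, canonical PRC1 and PR-DUB and as CPM for the proliferation list, with Lym in red and Lin- in blue. PRC2 core and proliferation are both lowest in Lym mouse 63, canonical PRC1 is highest in Lym mice 62 and 63, and the 3 Lym bars of PR-DUB (1067 to 1115) all lie above the 3 Lin- bars (943 to 978).

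Of the 5 accessory subunits of PRC2, 4 had a log2 fold change above 0, with a median of 0.12. Jarid2 and Aebp2 mark the form PRC2.2, which binds ubiquitinated H2A. Jarid2 was at 4070, 3420 and 3972 for Lym against 3399, 3473 and 3630 for Lin- (log2 fold change 0.12, 95% interval -0.14 to 0.38). Aebp2 was at 2559, 1885 and 2005 for Lym against 2198, 2078 and 2013 for Lin- (log2 fold change 0.02, 95% interval -0.30 to 0.35). Both sets overlapped, and the sign for Aebp2 turned without Lym mouse 62 (-0.11).

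The Polycomb-like proteins Mtf2, Phf1 and Phf19 mark the alternative form PRC2.1 and guide it to CpG islands. Mtf2, the most abundant of the 3, was at 3407, 2304 and 2427 for Lym against 2340, 2545 and 1921 for Lin-, and only Lym mouse 62 lay above the Lin- range. Of the exonic bases of Mtf2, 6.93% overlap Tmed5 on the opposite strand, which had a mean normalized count of 1849. Phf1 was at 185, 280 and 223 for Lym against 176, 148 and 133 for Lin-, with groups apart and a log2 fold change of 0.57 ± 0.25 (SE; unadjusted p = 0.0486, limma adjusted p = 0.487). Of the exonic bases of Phf1, 39.3% overlap exons of Cuta on the opposite strand, and the sources used here do not say whether counting used the strand, so this value is uncertain. Phf19 ran the other way, at 368, 413 and 616 for Lym against 562, 474 and 719 for Lin- (log2 fold change -0.34, 95% interval -0.90 to 0.21). Per kilobase, Mtf2 made up 74.5% ± 7.05 of the 3 in Lym and 71.1% ± 5.77 in Lin- (SD, n = 3 each), Phf19 14.8% ± 4.95 against 21.1% ± 5.87, and Phf1 10.6% ± 3.42 against 7.83% ± 0.877.

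The catalytic subunits of PRC1 are the E3 ligases Rnf2 (RING1B) and Ring1 (RING1A), and Rnf2 was the more abundant in every library. Rnf2 was at 1883, 1145 and 1005 for Lym against 1026, 1027 and 840 for Lin-. Most of the difference lay in Lym mouse 62, and Lym mouse 87 was inside the Lin- range (log2 fold change 0.43 ± 0.23, limma adjusted p = 0.541; 0.16 without Lym mouse 62). Ring1 was at 262, 261 and 267 for Lym against 247, 224 and 288 for Lin- (log2 fold change 0.07, 95% interval -0.38 to 0.51). Per kilobase Rnf2 held 79.1% ± 5.26 of the pair in Lym and 74.8% ± 4.59 in Lin- (SD, n = 3 each).

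All 10 members of canonical PRC1 had a log2 fold change above 0, with a median of 0.30 and a range of 0.09 to 1.22, where 48.7% of all genes tested were above 0. None passed the limma threshold. The highest value of each lay in Lym mouse 62 (6 genes) or Lym mouse 63 (4 genes), while Lym mouse 87 was inside the Lin- range for 6 of them, above it for 3 and below it for 1. Their sum was 1603, 1348 and 1033.5 normalized counts per kb for Lym, against 1132, 1092 and 966 for Lin-. The 3 progenitor markers followed the same order of Lym mice, with sums of 2124, 1998 and 1086 CPM for Lym against 1017, 1031 and 1018 for Lin-, as did the stromal list and Kit, and their part in the PRC1 values was not tested.

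The CBX proteins read methylated H3, and Cbx2 and Cbx6 had the highest fold changes of the 33 tested members. Cbx2 was at 545, 263 and 156 for Lym against 157, 130 and 84.6 for Lin-. Lym mouse 62 was the highest, and Lym mouse 87 was just below Lin- mouse 56, so the groups just overlapped. Its log2 fold change was 1.22 ± 0.45 (SE; 95% interval 0.20 to 2.24; unadjusted p = 0.0249, limma adjusted p = 0.452), and in the authors' deposited table it was 0.92 with an adjusted p of 0.118, turned to Lym minus Lin-. DESeq2 on the recovered reads gave 1.37 at nearly the same unadjusted p as the authors' DESeq2. The deposited fold change is therefore not directly comparable in size with the others. Leaving out Lym mouse 87 gave 1.64 (limma adjusted p = 0.0294) and leaving out Lym mouse 62 gave 0.75 (limma adjusted p = 0.844).

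Cbx6 was at 687, 632 and 157 for Lym against 227, 150 and 292 for Lin-. Lym mice 62 and 63 stood above every Lin- library and Lym mouse 87 fell inside their range, with a log2 fold change of 0.92 ± 0.54 (95% interval -0.30 to 2.15; limma adjusted p = 0.56). It was 0.55 without Lym mouse 62 (limma adjusted p = 0.89), 0.61 without Lym mouse 63 (limma adjusted p = 0.849) and 1.61 without Lym mouse 87 (limma adjusted p = 0.0116). Cbx2 and Cbx6 varied more over the 6 libraries than 89.2% and 90.0% of all genes tested. Cbx7, a chromodomain protein known for stem cell renewal, was at 266, 254 and 233 for Lym against 124, 255 and 226 for Lin-, where Lin- mouse 56 alone was low (log2 fold change 0.38, and 0.06 without that mouse). Cbx8 was at 233, 303 and 201 for Lym against 236, 224 and 224 for Lin- (log2 fold change 0.09, 95% interval -0.42 to 0.60), and its sign turned without Lym mouse 63 (-0.07). Cbx2 and Cbx8 are neighbours on chromosome 11, 5034 bases apart, and Cbx6 and Cbx7 on chromosome 15, 81118 bases apart. Of the exonic bases of Cbx6, 5.31% overlap Npcd on the same strand, which had a mean normalized count of 0.0. Of those of Cbx7, 1.54% overlap Apobec3 on the opposite strand, which had a mean normalized count of 5630. The use of the strand in counting is not given, so the Cbx7 values and the CBX shares below are uncertain.

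Among these 4 CBX genes, the share of Cbx8 per kilobase was 21.4%, 34% and 38.5% for Lym against 45.3%, 42.0% and 42.6% for Lin-. Each Lym share of Cbx8 was below every Lin- share. Cbx2 held 43.1%, 25.4% and 25.8% for Lym against 26.1%, 21.1% and 13.9% in Lin-, so that it was the leading CBX of the 4 in Lym mouse 62 and Cbx8 was in each of the other 5 libraries.

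The polyhomeotic proteins, which polymerize and compact chromatin, all had higher means in Lym. Phc1 was at 742, 808 and 606 for Lym against 543, 349 and 479 for Lin-. The groups were apart, also for Lym mouse 87, with a log2 fold change of 0.67 ± 0.21 (SE; 95% interval 0.19 to 1.14; unadjusted p = 0.0115, limma adjusted p = 0.426), and the value stayed between 0.48 and 0.80 when each mouse was left out in turn. Phc2, the most abundant of the 3 per kilobase, was at 1508, 1428 and 1417 for Lym against 1269, 1321 and 1256 for Lin-, a small difference of 0.18 on the log2 scale with groups apart (95% interval -0.08 to 0.44). Phc3 was at 2249, 2004 and 1499 for Lym against 1576, 1713 and 1485 for Lin- (log2 fold change 0.25, limma adjusted p = 0.598; 0.13 without Lym mouse 62). Scmh1, a sex comb on midleg homologue that binds the polyhomeotic proteins, was at 779, 874 and 821 for Lym against 778, 738 and 756 for Lin-, also with groups apart but a log2 fold change of only 0.12 (95% interval -0.18 to 0.42).

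Bmi1 (PCGF4), the PCGF subunit that defines canonical PRC1 in blood stem cells, was at 2807, 1983 and 1492 for Lym against 2025, 1909 and 1438 for Lin-. Lym mouse 62 was high and the other libraries overlapped, with a log2 fold change of 0.19 ± 0.23 (SE; 95% interval -0.34 to 0.73; limma adjusted p = 0.785) that became -0.04 without Lym mouse 62. Its paralogue Pcgf2 (MEL18) was near the low end of what was tested, at 58.3, 82.8 and 31.4 for Lym against 28.2, 73.0 and 35.1 in Lin-. Of the 6 PCGF genes Bmi1 held 61.3% ± 2.44 of the level per kilobase in Lym and 62.0% ± 3.14 in Lin-, and Pcgf2 1.92% ± 0.83 against 1.79% ± 0.893 (SD, n = 3 each).

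**Figure D3:**
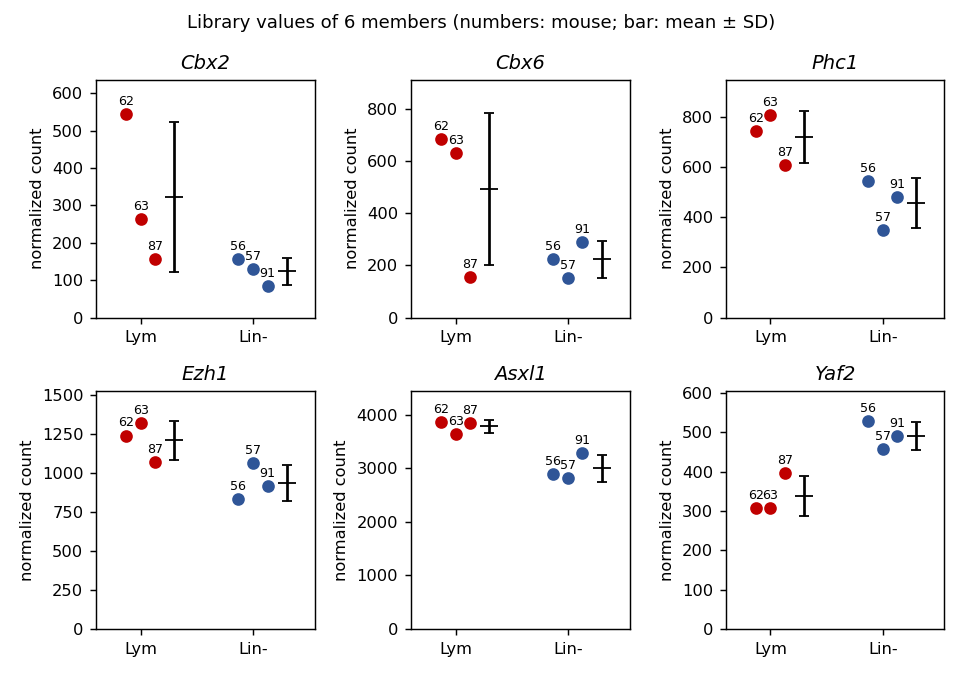
Dots give the normalized count of 6 members in each library, labelled by mouse, with Lym left of Lin- in every panel, and bars give the mean ± SD of the 3 libraries of a group. In Cbx2 and Cbx6 the Lym mean rests on mice 62 and 63, while in Phc1, Ezh1 and Asxl1 all 3 Lym dots lie above the Lin- dots and in Yaf2 all 3 lie below.

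Variant PRC1 was mixed, with 4 of 7 log2 fold changes above 0, a median of 0.14 and 1 gene with groups apart. That gene was lower in Lym, and 7.08% of all genes tested were apart in that direction. Yaf2, which takes the place of CBX in these complexes, was at 307, 309 and 396 for Lym against 528, 457 and 490 for Lin-. All 3 Lym libraries were below all 3 Lin- libraries, with a log2 fold change of -0.55 ± 0.18 (SE; 95% interval -0.96 to -0.14; unadjusted p = 0.0148, limma adjusted p = 0.441; 0.0472 without Lym mouse 87). Rybp, its paralogue and a stimulator of PRC1, was at 327, 257 and 301 for Lym against 362, 301 and 304 for Lin- (log2 fold change -0.13, 95% interval -0.57 to 0.31). A pseudogene copy of Rybp is in the annotation, and how reads shared with it were split is not given in the sources used here.

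The other PCGF subunits name the variant complexes. Pcgf1, of PRC1.1, was at 117, 73.9 and 79.1 for Lym against 69.7, 57.2 and 87.7 in Lin-. Pcgf3 and Pcgf5, alternatives in PRC1.3 and PRC1.5, differed in how steady they were. Pcgf3 was at 985, 1076 and 928 for Lym against 990, 864 and 866 for Lin-. Pcgf5 was at 1738, 982 and 691 for Lym against 844, 1028 and 672 for Lin-, with the high value in Lym mouse 62 alone, and its log2 fold change of 0.34 was -0.02 without that mouse. Pcgf6 and L3mbtl2 belong to PRC1.6, which silences germ-line genes. Pcgf6 was at 372, 289 and 271 for Lym against 351, 219 and 256 for Lin-. L3mbtl2 was at 1479, 1407 and 1908 for Lym against 1628, 1554 and 1793 for Lin-, with Lym mouse 87 highest and Lym mouse 63 lowest, as for Ezh2, and 17.2% of its exonic bases overlap Chadl on the opposite strand. None of these 5 had groups apart, and their limma adjusted p-values were 0.713 to 0.892.

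In PR-DUB the values of both detected ASXL cofactors were above every Lin- value in all 3 Lym mice. Over all genes tested this held for 8.49%. The values of the enzyme overlapped, and no member passed the limma threshold. Asxl1, which activates the deubiquitinase, was at 3855, 3631 and 3849 for Lym against 2897, 2815 and 3282 for Lin-. The groups were apart and Lym mouse 87 was as high as Lym mouse 62, with a log2 fold change of 0.34 ± 0.11 (SE; 95% interval 0.09 to 0.59; unadjusted p = 0.0147, limma adjusted p = 0.441) and values of 0.29 to 0.40 when each mouse was left out. Asxl2 was at 4244, 3876 and 3627 for Lym against 3307, 3486 and 3140 for Lin-, also apart, with a log2 fold change of 0.24 ± 0.11 (95% interval -0.01 to 0.49; limma adjusted p = 0.5). Bap1, the catalytic subunit, was at 1551, 1572 and 1614 for Lym against 1621, 1639 and 1591 for Lin-, the narrowest spread of the 33 tested members, and its log2 fold change of -0.03 had a 95% interval of -0.28 to 0.21. Asxl3 had no read in any library, so its normalized count was below the floor of 2.64 to 3.36 in each.

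**Figure D4:**
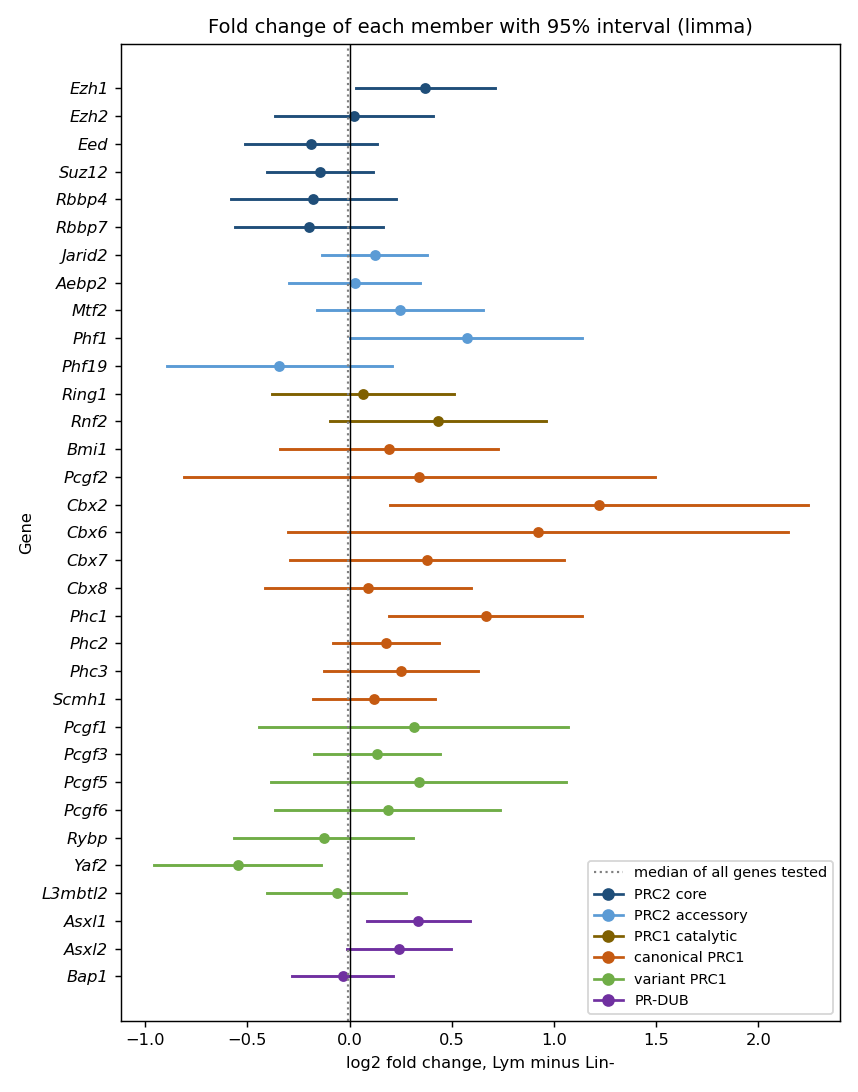
Dots give the limma log2 fold change of the 33 tested members, Lym minus Lin-, and bars the 95% interval, coloured by set, with the dotted line at the median of all genes tested (-0.01). All 10 canonical PRC1 dots lie right of 0, and the bars of Ezh1, Phf1, Cbx2, Phc1, Yaf2 and Asxl1 leave 0 out.

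Within each library, 9 pairs of paralogues or alternative subunits were set against each other, since such a ratio does not depend on the scaling between libraries. Phc2 was 2.03, 1.77 and 2.34 times Phc1 by normalized count for Lym and 2.34, 3.78 and 2.63 times for Lin-. The log2 difference was -0.49, and the groups were apart by a narrow margin (-0.29 without Lin- mouse 57). The ratio of Rybp to Yaf2 was 1.07, 0.833 and 0.76 for Lym against 0.684, 0.659 and 0.621 in Lin-, a difference of 0.42 with groups apart. Both had an exact two-sided permutation p of 0.1, the smallest that 3 against 3 libraries can give, and 0.45 after Benjamini-Hochberg adjustment over the 9 pairs.

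The other 7 ratios overlapped between the groups, with exact permutation p-values of 0.4 to 0.9. Ezh2 exceeded Ezh1 3.16, 2.41 and 4.58 times in Lym against 5.06, 3.24 and 4.41 times in Lin-, a log2 difference of -0.35. Mtf2 over Phf19 (0.59), Rnf2 over Ring1 (0.36), Pcgf5 over Pcgf3 (0.20), Asxl1 over Asxl2 (0.10) and Rbbp4 over Rbbp7 (0.02) had log2 differences above 0, and Bmi1 over Pcgf2 (-0.15) below it. Single mice moved these differences: Mtf2 over Phf19 was 0.26 without Lym mouse 62 and 0.32 without Lin- mouse 91, Rnf2 over Ring1 was 0.09 and 0.17 without the same mice, and Asxl1 over Asxl2 was 0.01 without Lin- mouse 57. Ezh2 over Ezh1 was -0.13 without Lym mouse 63 and -0.59 without Lym mouse 87. The ratio of Rbbp4 to Rbbp7 varied little, at 1.15, 0.971 and 1.06 in Lym and 1.08, 1.04 and 1.01 in Lin-.

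Of 30 further genes that work with these complexes, 28 passed the low-value filter and 21 (75.0%) had a log2 fold change above 0, against 48.7% of all genes tested, with a median of 0.24 and no call by limma. This list, too, was chosen with earlier results of these data known. The groups were apart in 6 partners with higher values in Lym, against 8.49% of all genes, and in none with lower values, against 7.08%. Of those 6 the highest fold changes were those of L3mbtl3, Mga and Mbd6. L3mbtl3, a reader of methylated lysine, was at 2605, 2597.2 and 1887 for Lym against 1534, 1871 and 1445 for Lin- (log2 fold change 0.54 ± 0.17, limma adjusted p = 0.426). Mga, the scaffold of PRC1.6, was at 8447, 6863 and 5501 for Lym against 5472, 5078 and 5215 for Lin- (0.38 ± 0.16, limma adjusted p = 0.467). Mbd6, a partner of PR-DUB, was at 2434, 2255 and 2014 for Lym against 1719, 1908 and 1876 for Lin- (0.28 ± 0.12, limma adjusted p = 0.485). In each of the 3, Lym mouse 87 was the Lym library nearest to Lin-.

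The demethylases that remove the PRC2 mark had overlapping groups. Kdm6b was at 3253, 3079 and 1496 for Lym against 1412, 1728 and 1411 for Lin- (log2 fold change 0.71 ± 0.28, limma adjusted p = 0.461), with Lym mouse 87 inside the Lin- range as for Cbx6. Kdm6a was at 1863, 1512 and 1232 for Lym against 1060, 1404 and 1226 for Lin- (0.31 ± 0.18, limma adjusted p = 0.565).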

How the data were processed

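Total RNA of 6 mice was sequenced with a stranded total-RNA kit, 12 PCR cycles and 38-base reads, per the labels' protocols. Per the submitters' processing notes the tools included STAR 2.6.1d and Trim Galore 0.6.4, besides featureCounts 1.6.4, bcl2fastq and DESeq2, with the build GRCm38.p6. The annotation release and the use of strand in counting are not given in the sources used here. The deposited signal is a normalized count, for which the authors scaled the reads of each library. Of values up to 10000 reads, 100.0% came out as whole reads within 0.01 after rescaling, so the reads were recovered. Per the file headers, a log2 fold change, a Wald score and a p-value by the authors stand beside the counts.

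Under R 4.3.3, limma 3.58.1 (trend) compared the groups after a log2 transform with a pseudocount of 2. It covered the 14273 genes that reached a normalized count of 10 in 3 or more libraries, at a Benjamini-Hochberg adjusted p of 0.05. edgeR 4.0.16 with TMM and DESeq2 1.42.0 on the recovered reads, TMM scaling, a pseudocount of 0.5, no filter and leaving out each mouse were alternatives. Levels per kb use the exonic length in the table. Exon overlaps were taken from GENCODE M21, in which 32 of the 34 members had the same identifier version, and promoters from RefSeq. Ratios and summaries used Python 3.11.15, scipy 1.17.1 and pandas 2.3.3. All 34 members were named, and of the partner list the genes past the threshold, otherwise up to 3 in each direction with groups apart, and both H3K27 demethylases. The members and lists were chosen with earlier results of these data known. Floors and intervals cover counting error and the spread between mice only, since PCR copies cannot be told apart in these files.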

Additional observations from a re-analysis of the deposited data

How the results depend on the processing

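The count of genes called was 0 in limma, edgeR and with TMM scaling or a pseudocount of 0.5, but 226 with DESeq2 and 5 without the filter, and 0 to 1348 when each mouse was left out, with 1348 without Lym mouse 87 and 1 without Lin- mouse 91. Members called were 1 with DESeq2 and 0 to 4 when a mouse was left out, with 4 without Lym mouse 87. Of the 33 tested members 26 kept their direction whichever mouse was left out. The other 7 changed sign, with log2 fold changes of -0.137 to 0.176 for Ezh2, -0.108 to 0.113 for Aebp2, -0.018 to 0.163 for Ring1, -0.042 to 0.413 for Bmi1, -0.071 to 0.223 for Cbx8, -0.021 to 0.644 for Pcgf5 and -0.198 to 0.021 for L3mbtl2. The median of variant PRC1 ran from -0.015 to 0.2. The other set medians kept their sign but ran from -0.242 to -0.053 for PRC2 core, 0.07 to 0.2 for PRC2 accessory subunits and 0.114 to 0.334 for PRC1 catalytic subunits. Log2 ratio differences ran from -0.037 to 0.085 for Rbbp4 over Rbbp7, -0.483 to 0.216 for Bmi1 over Pcgf2 and -0.164 to 0.458 for Pcgf5 over Pcgf3, which changed sign, and from 0.263 to 0.877 for Mtf2 over Phf19, 0.091 to 0.555 for Rnf2 over Ring1, 0.014 to 0.2 for Asxl1 over Asxl2, -0.593 to -0.13 for Ezh2 over Ezh1 and -0.63 to -0.285 for Phc2 over Phc1, which did not. The cause was not tested. No paired analysis was possible because the mice of the groups share no number. TMM scaling moved the median of all genes by -0.016. The lowest counts limit Pcgf2 and Pcgf1, with 308 and 482 reads over the 6 libraries.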
